A study of Mus musculus with 27 samples.

Results

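The data concern 9 genes of blood coagulation and plasminogen activation in macrophages: F5, F7, F10, F13a1, F3, Thbd, Plau, Plaur and Serpinb2. They were taken by symbol from the 50559 genes of the raw count table, and all 9 were found and passed the filter on low counts. They were selected on their levels and differences between the groups of these same libraries, which an earlier look at the counts had shown. Their own differences are therefore given as descriptions with no test, and p-values are given only for other genes.

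Coagulation starts when tissue factor (F3), a membrane protein, binds factor VII (F7), and the complex activates factor X (F10). Activated factor X, with factor V (F5) as its cofactor, converts prothrombin to thrombin, and the A subunit of factor XIII (F13a1) cross-links the fibrin that thrombin makes. Thrombomodulin (Thbd) is a receptor that turns thrombin towards the anticoagulant protein C pathway. In plasminogen activation, urokinase (Plau), bound to its receptor (Plaur), cleaves plasminogen to plasmin, the protease that dissolves fibrin and degrades matrix, and the serpin PAI-2 (Serpinb2) inhibits urokinase. Most plasma clotting factors are made by the liver, while macrophages are a known source of several of these 9 products outside it.

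Libraries were made from bone marrow-derived macrophages of C57BL/6 mice, 3 to 4 months old and labelled female, that were wild-type (WT) or lacked TRAP1, a mitochondrial chaperone, in the whole animal (TRAP1 KO). Unpolarized macrophages (M0, also written Mφ) had no cytokine added, and M2 macrophages received 10 ng/ml IL-4 for 24 h. Either type was then kept for 48 h in control medium (DMEM) or in medium conditioned by murine cells of malignant peripheral nerve sheath tumor (MPNST-CM, shown as CM in the plots). All cells had been differentiated in medium that holds L929-conditioned medium as the source of M-CSF. The 8 groups have 3 libraries each in batch 1, 24 in all, and these give the values below unless batch 2 is named. The labels do not say whether the libraries of a group came from separate mice, so SDs, standard errors and p-values cover the spread between these libraries, which may be technical.

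Totals in batch 1 ranged from 7037684 to 9089792 counts, so that 3 counts, taken as the limit of detection, corresponded to 0.323 to 0.451 CPM (counts scaled to the size of the library, with TMM factors), depending on the library. Trap1 ranged from 10.4 to 18.8 CPM over the 12 WT libraries and had no count in the 12 KO libraries, which allows up to that limit. Xist, the RNA of the inactive X chromosome of female cells, ranged from 254 to 504 CPM over the same WT libraries and from 0 to 1.14 CPM over the KO libraries, so TRAP1 genotype and Xist status cannot be told apart there. All 8 macrophage markers were detected, with a summed level between 7890 and 12300 CPM. Of the hepatocyte markers, Alb, Ttr and Serpina1a stayed under 3 counts in every library, and the 4 together summed to at most 1.13 CPM. Of the 4 endothelial markers Tek and Tie1 stayed under 3 counts in every library, and the list summed to between 3.15 and 56.7 CPM, nearly all of it Kdr. Replicate 1 stood apart from replicates 2 and 3 in 5 groups, the 4 M0 groups and M2 WT cells in MPNST-CM: the chi-square of the counts per degree of freedom was 16 to 37.4 in pairs that hold replicate 1 and 2.11 to 3.42 between the other two. In these 5 groups replicate 1 was the lowest library for Plau and for Plaur. Without these 5 libraries 102 of the 108 member fold changes described below moved by less than the spread between replicates and none of those without overlap changed sign. Batch 2 holds 3 libraries, of which those labelled M2 DMEM KO replicate 4 and M2 CM KO replicate 4 went against their labels, as described at the end.

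F5 had the widest range of group means of the 9 genes, 261-fold, and its level was high in TRAP1 KO macrophages exposed to MPNST-CM. F7, F10, Plaur and F3 were higher in M2 than in M0 macrophages in both media and both genotypes, and F13a1 was lower. Plau was lower in M2 TRAP1 KO macrophages in MPNST-CM than in any other group, and Serpinb2 went from a few counts in control medium to 16.9 CPM or more in TRAP1 KO cells in MPNST-CM. In these bulk samples, fewer cells of a type and less RNA per cell cannot be told apart. The levels of the 9 genes are plotted by library.

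**Figure D1:**
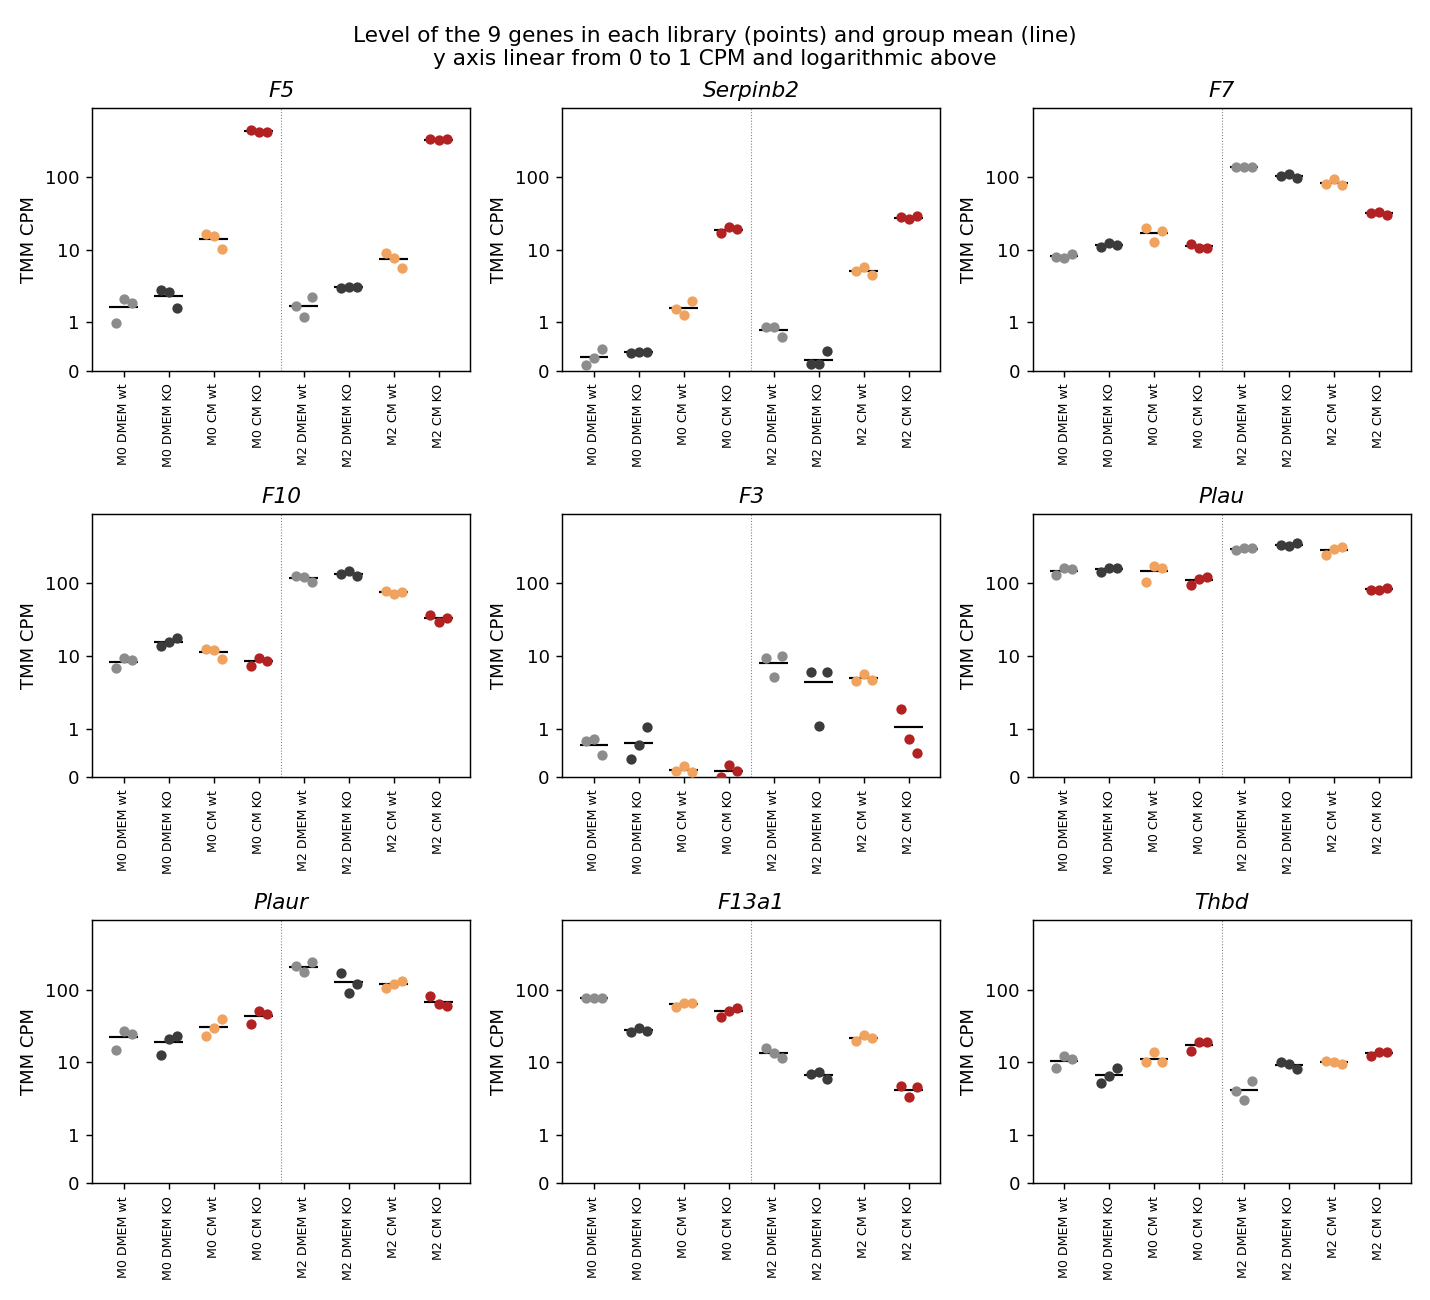
TMM CPM of each of the 9 genes (y axis, linear from 0 to 1 and logarithmic above) in the 24 batch 1 libraries, by group (x axis). Points are libraries, lines are means of 3, and the dotted line parts M0 from M2. F5 sits above 300 CPM in the 6 TRAP1 KO libraries in MPNST-CM and below 17 CPM in the other 18.

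Tissue factor, F3, starts the cascade and was near the limit of detection in M0 macrophages. M0 WT libraries had 6, 6 and 4 counts in control medium and 1, 2 and 1 in MPNST-CM, and M0 KO libraries had 3, 5 and 8 counts in control medium and 0, 2 and 1 in MPNST-CM. Both M0 groups in MPNST-CM were under 3 counts in every library, as were 6 of the 24 libraries in all. M2 macrophages held more. M2 WT libraries had 9.31, 5.05 and 9.83 CPM in control medium and 4.53, 5.61 and 4.66 CPM in MPNST-CM. M2 KO libraries had 6.00, 1.07 and 6.07 CPM in control medium, where replicate 2 stood apart with 8 counts against 40 and 44, and 1.85, 0.791 and 0.506 CPM in MPNST-CM. The M2 level was above the M0 level in each of the 4 settings of medium and genotype without overlap. From summed counts, the ratio of M2 to M0 was 12.2 (95% exact binomial interval 7.32 to 21.9) for WT cells in control medium and 32.8 (12.5 to 122) in MPNST-CM. These intervals cover counting error only, and read copies made by PCR are not independent molecules. In MPNST-CM, M2 KO cells held 0.208 times the F3 of M2 WT cells (0.130 to 0.323), and the libraries did not overlap.

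Factor VII and factor X, which act one after the other, had much the same order of group means, with M2 cells in control medium first and M0 WT cells in control medium last. F7 was at 7.97, 7.56 and 8.66 CPM in M0 WT and at 135, 139 and 135 CPM in M2 WT libraries in control medium, a 16.9-fold difference of means (log2 4.08, SE 0.13). F10 was at 6.75, 9.38 and 8.89 CPM in M0 WT and at 124, 123 and 105 CPM in M2 WT libraries in control medium, a 14.1-fold difference (log2 3.81, SE 0.14). For both genes every M2 library in control medium was higher than every other library of the same genotype.

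In MPNST-CM the M2 level of F7 was lower. It was 79.8, 93.0 and 77.6 CPM in WT and 32.1, 32.7 and 30.3 CPM in KO libraries, against 102, 109 and 98.1 CPM in KO libraries in control medium. F10 in M2 macrophages was at 79.3, 71.1 and 74.9 CPM in WT and 36.4, 29.6 and 32.9 CPM in KO libraries in MPNST-CM, and at 133, 147 and 124 CPM in KO libraries in control medium. The log2 difference of MPNST-CM from control medium was therefore -0.71 (SE 0.10) in WT and -1.70 (SE 0.11) in KO cells for F7, and -0.65 (SE 0.12) and -2.03 (SE 0.12) for F10. In each of these 4 differences the libraries in MPNST-CM and in control medium did not overlap. The genotypes differed in that response by -0.99 (SE 0.15) for F7 and -1.39 (SE 0.17) for F10 on the log2 scale. M0 cells had a difference of the same sign and like size, -1.12 (SE 0.19) for F7 and -1.31 (SE 0.21) for F10, at far lower levels. There, F7 went from 8.06 ± 0.556 to 16.8 ± 3.48 CPM (SD, n = 3) with MPNST-CM in WT cells, and from 10.8, 12.3 and 11.4 CPM to 12.1, 10.6 and 10.4 CPM in KO cells, whose libraries overlapped.

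F7 and F10 lie next to each other, in the RefSeq gene order Mcf2l, F7, F10, Proz, Pcid2 on chromosome 8. Their levels (log2 CPM) had a Pearson r of 0.97 over the 24 libraries, which share groups and TMM scaling, and of -0.12 once each group's mean was subtracted, so that the likeness is one of group means. The ratio of F10 counts to F7 counts was not constant. It was 1.35 ± 0.155 and 1.31 ± 0.0417 (SD, n = 3) in M0 and M2 KO cells in control medium, and between 0.690 and 1.04 on average in the other 6 groups. The 250 bases before the RefSeq start of each gene are shown because these neighbours move together. Capitals mark ACGTG, the core of the hypoxia response element, which occurs also inside the E-box CACGTG, and TGANTCA, an AP-1 type motif, on either strand. The F7 promoter lies at chr8:13025784-13026033 and the F10 promoter at chr8:13037058-13037307, both on the plus strand of GRCm38.p6, and the sequences are from RefSeq.

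F7: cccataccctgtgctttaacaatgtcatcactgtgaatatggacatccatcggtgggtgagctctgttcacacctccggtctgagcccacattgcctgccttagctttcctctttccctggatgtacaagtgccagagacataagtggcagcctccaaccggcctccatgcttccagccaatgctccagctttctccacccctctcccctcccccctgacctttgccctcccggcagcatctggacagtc

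F10: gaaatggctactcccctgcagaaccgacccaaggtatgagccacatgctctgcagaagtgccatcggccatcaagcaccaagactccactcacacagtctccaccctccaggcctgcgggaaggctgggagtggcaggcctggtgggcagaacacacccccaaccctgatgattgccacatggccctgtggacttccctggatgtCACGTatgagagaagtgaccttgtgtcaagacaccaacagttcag

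The F10 sequence has 1 ACGTG match, its first base at -45 from the start, and the F7 sequence has no match to ACGTG or TGANTCA. The core ACGTG was found in 16.6% of the 32851 RefSeq promoter windows of this length. A STAT6-type motif (TTC, any 4 bases, then GAA) was searched as well and was in neither window, nor in that of any of the 7 genes with an entry, against 5.85% of all windows. A missing match says only that these letters are not in this window.

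Factor V, F5, was near 2 CPM in control medium whatever the cell type or genotype. M0 libraries in control medium were at 0.981, 2.09 and 1.82 CPM in WT and at 2.75, 2.62 and 1.58 CPM in KO. M2 libraries in control medium were at 1.65, 1.17 and 2.25 CPM in WT and at 3.00, 3.08 and 3.03 CPM in KO. With MPNST-CM, M0 libraries were at 16.2, 15.4 and 10.2 CPM in WT and at 438, 417 and 419 CPM in KO. M2 libraries in MPNST-CM were at 8.93, 7.68 and 5.66 CPM in WT and at 329, 321 and 327 CPM in KO. F5 was thus higher in MPNST-CM in all 4 comparisons without overlap, and the KO libraries in MPNST-CM lay close together, at 425 ± 11.4 CPM in M0 and 326 ± 4.37 CPM in M2 cells (SD, n = 3).

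In WT cells the difference of MPNST-CM from control medium was 8.57-fold in M0 (log2 3.09, SE 0.22) and 4.40-fold in M2 (log2 2.14, SE 0.25). In KO cells it was 183-fold in M0 (log2 7.50, SE 0.19) and 107-fold in M2 (log2 6.74, SE 0.19). Within MPNST-CM, KO libraries held 30.4 times the WT level in M0 and 43.9 times in M2, or 4.93 (SE 0.16) and 5.45 (SE 0.17) on the log2 scale. The genotype difference in the response was 4.42 (SE 0.37) in M0 and 4.60 (SE 0.39) in M2. In control medium the genotypes differed by 0.51 (SE 0.30) in M0, where the libraries overlapped, and by 0.85 (SE 0.30) in M2, where they did not.

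Factor V is also carried by platelets, so the 9 platelet and megakaryocyte markers are given beside it. Of these, 3 stayed under 3 counts in every library, Gp6 and Gp5 among them. Pf4 and Ppbp, chemokines stored in platelets that macrophages can also express, rose with MPNST-CM as F5 was higher there: in M0 cells Pf4 averaged 344 CPM in KO cells in control medium and 10840 CPM in MPNST-CM, and Ppbp 1.70 and 633 CPM. Between the genotypes they went in the direction of F5 in M0 cells in MPNST-CM. There Pf4 averaged 10840 CPM in KO against 4109 CPM in WT cells, and Ppbp 633 against 78.3 CPM. In M2 cells in MPNST-CM Pf4 also went in the direction of F5, with a KO level 1.94 times the WT level. Ppbp was there at 1.21 times the WT level (410 against 338 CPM, edgeR adjusted p = 0.216). Pf4 and Ppbp did not follow F5 between the genotypes in all settings. In M0 cells in control medium both fell in KO, to 0.395 times and 0.269 times the WT level (edgeR adjusted p = 1.09e-09 and 0.000324), while the F5 libraries overlapped. The summed level of all 9 markers lay between 10100 and 12300 CPM in M0 KO libraries in MPNST-CM, between 4020 and 4310 CPM in M0 WT libraries, and between 308 and 932 CPM in M0 libraries in control medium. In M2 libraries it lay between 8550 and 10300 CPM (KO) and 4290 and 5240 CPM (WT) in MPNST-CM, and between 360 and 457 CPM in control medium. Without Pf4 and Ppbp, the other 7 markers summed to 11.6 to 28.1 CPM over the 24 libraries, and to 12.5 to 14.6 CPM in M0 KO libraries in MPNST-CM. The part of platelet or megakaryocyte RNA in the F5 level was not tested.

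PAI-2, Serpinb2, had group means in a similar order to F5. M0 libraries in control medium had 1, 2 and 4 counts in WT and 3, 3 and 3 in KO, and M2 libraries had 6, 7 and 5 counts in WT and 1, 1 and 3 in KO. Of the 24 libraries, 4 were under 3 counts, all in control medium. In MPNST-CM, M0 libraries were at 1.51, 1.27 and 1.94 CPM in WT and at 16.9, 20.2 and 19.2 CPM in KO, and M2 libraries at 5.03, 5.86 and 4.53 CPM in WT and at 27.8, 26.1 and 29.0 CPM in KO. Every library in MPNST-CM was above every library in control medium of the same type. From summed counts, MPNST-CM over control medium was 5.55 (95% exact binomial interval 2.47 to 14.6) in M0 WT, 48.5 (25.3 to 107) in M0 KO, 6.14 (3.73 to 10.7) in M2 WT and 118 (50.2 to 364) in M2 KO cells. KO over WT within MPNST-CM was 11.9-fold in M0 (log2 3.56, SE 0.20) and 5.38-fold in M2 (log2 2.42, SE 0.17).

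F5 and Serpinb2 differed in their order between the cell types. F5 was higher in M0 than in M2 macrophages in MPNST-CM (M2 over M0 0.531 in WT and 0.767 in KO), whereas Serpinb2 was lower in M0 (M2 over M0 3.27 in WT and 1.47 in KO), with no overlap in any of the 4. Their r over the 24 libraries was 0.92, and 0.10 once group means were subtracted. Their promoter windows are shown because their group means had a similar order, with the same motifs in capitals. F5 and Serpinb2 are not neighbours on chromosome 1. The F5 window is chr1:164151585-164151834 and the Serpinb2 window chr1:107511173-107511422, both on the plus strand of GRCm38.p6.

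F5: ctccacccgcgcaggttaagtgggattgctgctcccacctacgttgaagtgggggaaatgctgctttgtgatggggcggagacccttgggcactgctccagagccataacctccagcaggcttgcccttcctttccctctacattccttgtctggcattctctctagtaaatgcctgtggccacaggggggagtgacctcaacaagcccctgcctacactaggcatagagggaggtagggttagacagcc

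Serpinb2: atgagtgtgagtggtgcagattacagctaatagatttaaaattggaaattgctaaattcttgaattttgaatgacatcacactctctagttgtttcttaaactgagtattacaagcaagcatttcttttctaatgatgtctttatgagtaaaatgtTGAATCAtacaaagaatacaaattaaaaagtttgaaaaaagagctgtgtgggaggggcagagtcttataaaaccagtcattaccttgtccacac

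The F5 window has no match to any of the 3 motifs. The Serpinb2 window has 1 TGANTCA match, its first base at -94, or at -181 from a second RefSeq start whose window is not shown. That motif was in 6.75% of all windows and in those of 3 of the 7 genes with an entry, namely Serpinb2, F3 (first bases at -146 and -135) and Plaur (-69). Matches are letters only, and no binding was measured.

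**Figure D2:**
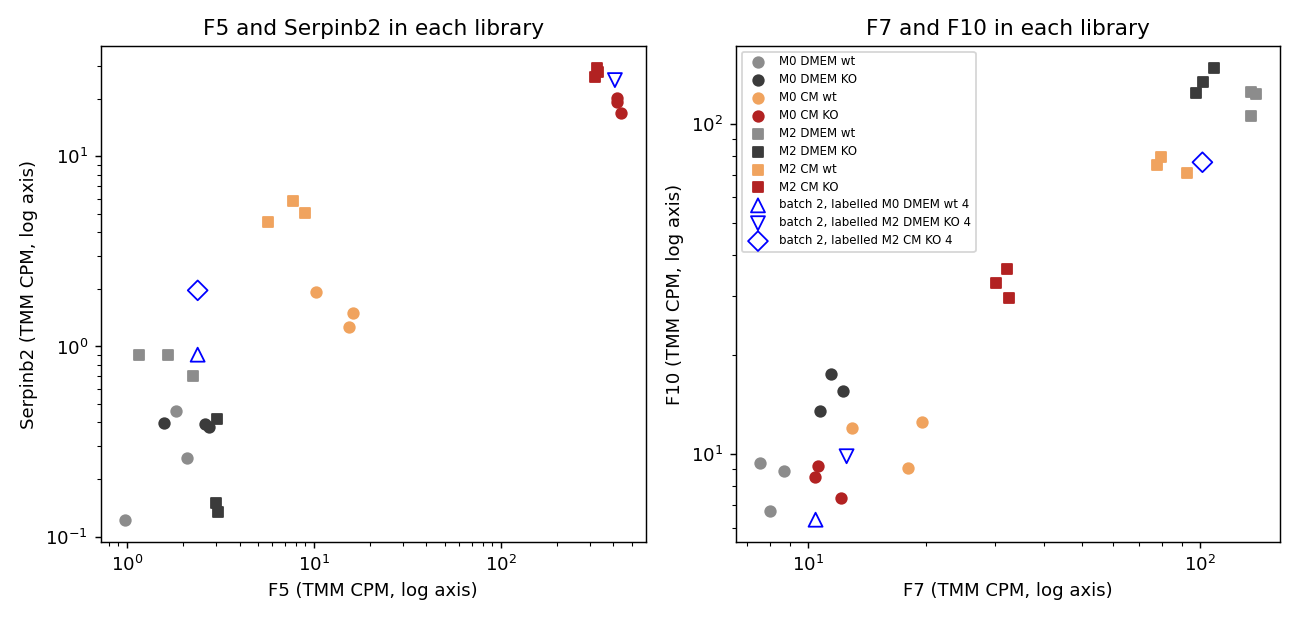
F5 against Serpinb2 (left) and F7 against F10 (right), TMM CPM on log axes, 1 point per library (circles M0, squares M2, colours by medium and genotype, open blue shapes the 3 batch 2 libraries on the scaling of all 27). KO libraries in MPNST-CM lie apart at the upper right on the left, and M2 libraries lie apart from M0 libraries on the right, while the batch 2 libraries labelled M2 DMEM KO 4 and M2 CM KO 4 lie outside their groups.

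Urokinase, the plasminogen activator itself, had its lowest level in M2 KO cells in MPNST-CM and its next lowest in M0 KO cells in MPNST-CM. Plau was at 130, 163 and 155 CPM in WT and 142, 164 and 163 CPM in KO M0 libraries in control medium, and at 288, 306 and 304 CPM in WT and 341, 323 and 354 CPM in KO M2 libraries. With MPNST-CM, M0 libraries were at 103, 174 and 161 CPM in WT and 95.1, 113 and 121 CPM in KO, the latter below control medium without overlap (log2 -0.51, SE 0.14). M2 WT libraries stayed at 243, 300 and 312 CPM, overlapping those in control medium, while M2 KO libraries were at 81.7, 80.8 and 86.2 CPM. In M2 KO cells the level in MPNST-CM was therefore 0.244 times that in control medium (log2 -2.03, SE 0.14), and in MPNST-CM the KO level was 0.291 times the WT level (log2 -1.78, SE 0.14). The genotypes differed in the response by -1.96 (SE 0.19) in M2 and by -0.48 (SE 0.19) in M0. The M2 level was 1.95 to 2.17 times the M0 level in control medium and in WT cells in MPNST-CM, and 0.754 times it in KO cells in MPNST-CM, without overlap in any of the 4.

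The urokinase receptor followed polarization more than Plau did. Plaur was at 14.6, 27.2 and 24.4 CPM in M0 and 208, 175 and 237 CPM in M2 WT libraries in control medium, 9.36-fold apart (log2 3.23, SE 0.28). KO libraries in control medium were at 12.8, 20.9 and 22.6 CPM in M0 and 169, 90.7 and 121 CPM in M2. In MPNST-CM the level of M0 KO cells was higher without overlap, at 33.2, 50.1 and 46.2 CPM, while M0 WT libraries were at 23.04, 29.2 and 38.9 CPM and overlapped those in control medium. The M2 level was lower than in control medium without overlap, at 106, 121 and 130 CPM in WT and 80.2, 63.4 and 59.4 CPM in KO cells. The M2 to M0 ratio in KO cells was thereby 6.74 in control medium and 1.57 in MPNST-CM. In M2 KO cells exposed to MPNST-CM, urokinase and its receptor were both lower and the inhibitor Serpinb2 higher than in the same cells in control medium, each without overlap.

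The A subunit of factor XIII, F13a1, was the member that was higher in M0 macrophages throughout. M0 WT libraries in control medium were at 76.4, 76.1 and 77.5 CPM and M0 KO libraries at 25.8, 29.6 and 26.8 CPM. In MPNST-CM M0 libraries were at 57.3, 65.2 and 65.1 CPM in WT and 42.3, 50.8 and 56.6 CPM in KO. M2 libraries in control medium were at 15.9, 13.2 and 11.5 CPM in WT and 6.90, 7.37 and 5.93 CPM in KO, and in MPNST-CM at 19.7, 23.5 and 21.3 CPM in WT and 4.76, 3.28 and 4.56 CPM in KO. KO was below WT in all 4 settings without overlap, from log2 -0.33 (SE 0.12) in M0 cells in MPNST-CM to -2.36 (SE 0.16) in M2 cells in MPNST-CM. The response to MPNST-CM had opposite signs in the 2 genotypes and turned again with polarization: M0 cells had log2 -0.29 (SE 0.11) in WT and 0.87 (SE 0.12) in KO, and M2 cells 0.67 (SE 0.13) in WT and -0.69 (SE 0.18) in KO. The first of these, in M0 WT cells, rests on batch 1: with all 27 libraries it was -0.03, and 0.03 with batch as a covariate, and M0 DMEM WT replicate 4 had 31.03 CPM. In the 8 groups no neighbours in the order of means overlapped, and the highest and lowest, M0 WT cells in control medium and M2 KO cells in MPNST-CM, were 18.3-fold apart.

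For thrombomodulin, Thbd, 6 of 7 neighbours in the order of the 8 group means overlapped. It was lowest in M2 WT libraries in control medium, at 4.06, 2.98 and 5.48 CPM, and highest in M0 KO libraries in MPNST-CM, at 14.5 to 19.1 CPM. MPNST-CM was above control medium without overlap in M0 KO (2.62-fold), M2 WT (2.38-fold) and M2 KO cells (1.46-fold), while M0 WT libraries overlapped at 11.2 ± 2.25 against 10.5 ± 2.06 CPM (SD, n = 3). In control medium M2 KO cells held 2.20 times the level of M2 WT cells, at 10.1, 9.51 and 8.00 CPM, without overlap.

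The log2 fold changes of all 9 genes are plotted for the 12 comparisons of pairs of groups. Over the 108 pairs of gene and comparison, 55 (50.9%) differed by 1 or more on the log2 scale in either direction, against 11.4% of the pairs of all 13614 genes tested. The members were chosen for their differences, so nothing is read from this share. The same holds for the counts of genes whose 3 libraries did not overlap with the other 3, which are given here beside the percentage of all genes tested that did not overlap. For MPNST-CM against control medium these were 5 of 9 in M0 WT (33.3% of all genes), 8 in M0 KO (43.1%), 7 in M2 WT (39.3%) and 8 in M2 KO cells (49.2%). For KO against WT they were 3 of 9 in M0 (31.7%) and 7 in M2 cells (37.5%) in control medium, and 5 in M0 (46.1%) and 9 in M2 cells (46.5%) in MPNST-CM. For M2 against M0 they were 8 of 9 for WT (51.7%) and 7 for KO cells (40.7%) in control medium, and 8 for WT (35.1%) and 9 for KO cells (27.7%) in MPNST-CM. In M2 KO against M2 WT cells in MPNST-CM, F5, Serpinb2 and Thbd were higher and the other 6 lower.

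**Figure D3:**
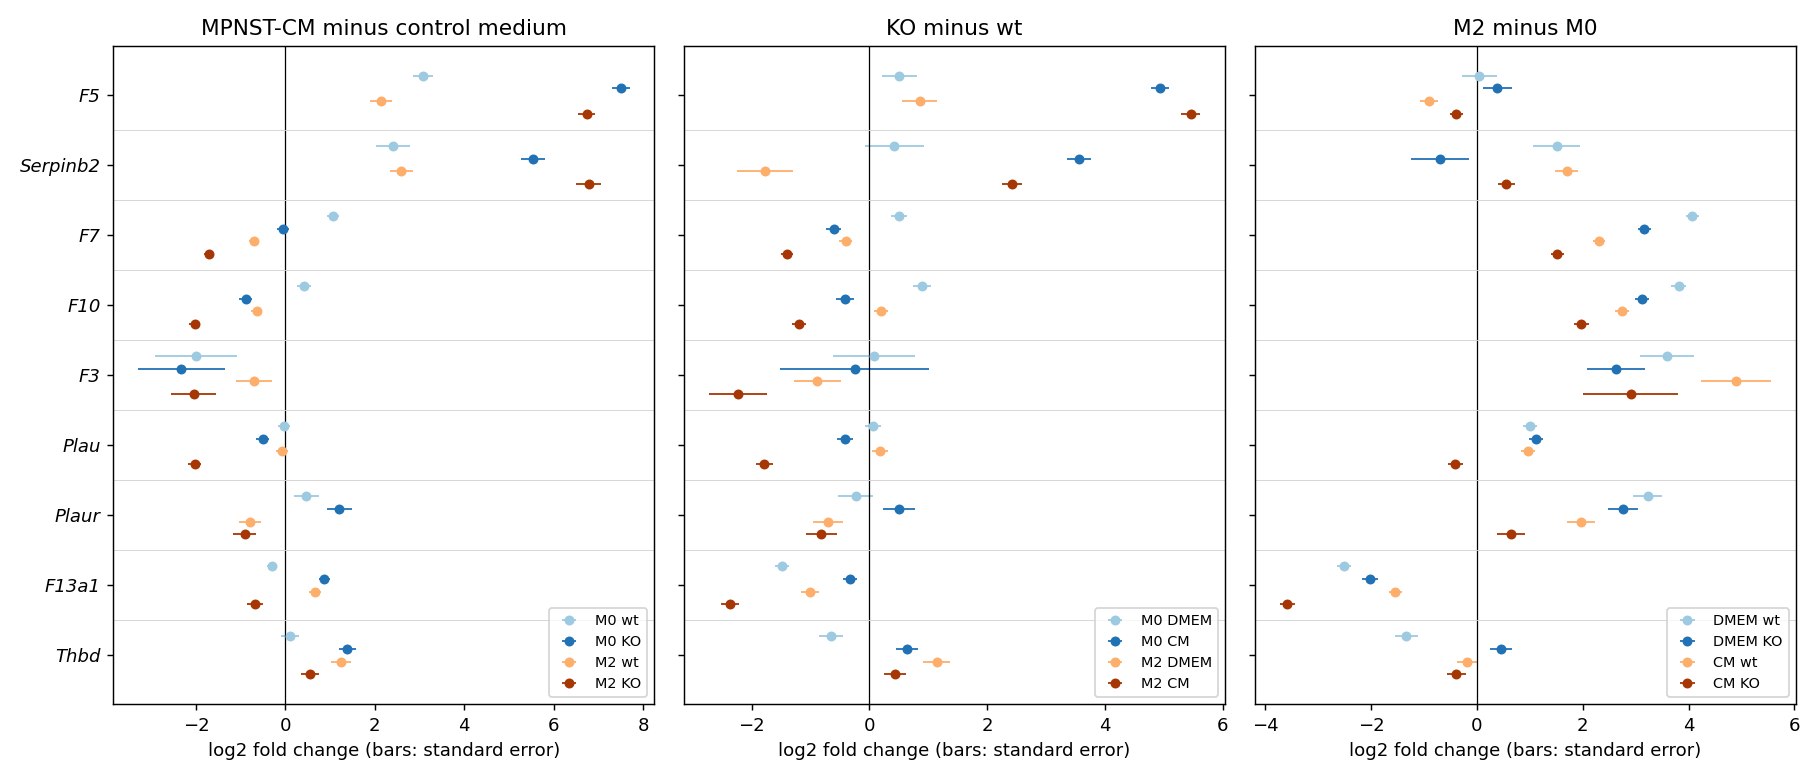
Log2 fold change (x axis) with its standard error (bars) of the 9 genes (rows) from a single edgeR fit, for MPNST-CM minus control medium (left), KO minus WT (middle) and M2 minus M0 (right), with a colour for each of the 4 settings. F5 and Serpinb2 have the largest values on the left, F7, F10, F3 and Plaur lie to the right of 0 in all 4 settings of the right panel, and F13a1 lies to the left of 0 there.

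The other genes of the pathway were taken as 46 genes in 4 lists and tested with edgeR's quasi-likelihood test, adjusted over all 13614 genes. Only 22 of the 46 passed the filter on low counts, 7 of 18 coagulation genes, 5 of 12 anticoagulant genes, 4 of 6 receptors and membrane genes, and 6 of 10 fibrinolysis genes, and 15 were under 3 counts in every library. Among these 15 were prothrombin (F2), F11, F12, the 3 fibrinogen chains (Fga, Fgb, Fgg), protein C (Proc) and plasminogen (Plg), so that prothrombin, fibrinogen and plasminogen, the substrates of these enzymes, were not detectable at this depth.

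M2 macrophages held more of these genes than M0 macrophages. In control medium 12 of the 22 rose and 1 fell in WT cells (59.1%, against 37.2% of all genes tested), and 16 rose and none fell in KO cells (72.7%, against 28.5%). In MPNST-CM 10 rose in WT cells (45.5%, against 24.9%) and 6 in KO cells (27.3%, against 11.2%), and none fell. Without the 5 replicate 1 libraries that stood apart, 10 passed in the last of these. The median log2 fold change over the 22 was 0.61, 0.59, 0.33 and 0.19 in these 4 comparisons, and that over all genes lay between -0.05 and 0.01. F2rl2, the thrombin receptor PAR3, rose from 2.93 to 47.6 CPM in WT cells in control medium (log2 4.00, SE 0.18, adjusted p = 6.7e-16). Procr, the endothelial protein C receptor, rose from 17.9 to 83.8 CPM (log2 2.23, SE 0.14, adjusted p = 4.36e-13). Vwf, von Willebrand factor, the carrier of factor VIII, rose from 14.3 to 53.2 CPM (log2 1.89, SE 0.14, adjusted p = 3.57e-11). Anxa2, a cell surface receptor of plasminogen and its activator, rose from 472 to 1178 CPM (log2 1.32, SE 0.07, adjusted p = 6.4e-14), and Pros1, protein S, the cofactor of activated protein C, from 94.0 to 200 CPM (log2 1.09, SE 0.11, adjusted p = 3.94e-09).

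With MPNST-CM, 8 of the 22 passed in M0 WT cells, 3 up and 5 down (21.2% of all genes tested passed), and 13 in M0 KO cells, 6 up and 7 down (32.9%). In M2 WT cells 9 passed, 2 up and 7 down (24.5%), and in M2 KO cells 15 passed, 1 up and 14 down (36.8%), with a median log2 fold change of -0.57 against -0.01 over all genes. All 5 tested anticoagulant genes were among those that fell in M2 KO cells. Vwf fell there from 59.5 to 10.6 CPM (log2 -2.49, SE 0.15, adjusted p = 2.45e-13), and Anxa5, which covers procoagulant phospholipid, from 607 to 235 CPM (log2 -1.37, SE 0.11, adjusted p = 1.47e-10). F2rl2 fell from 21.5 to 2.80 CPM (log2 -2.93, SE 0.18, adjusted p = 6.84e-13). The gene that rose was Mcfd2, which with Lman1 carries factors V and VIII out of the endoplasmic reticulum, from 114 to 216 CPM (log2 0.92, SE 0.12, adjusted p = 5.96e-07). Mcfd2 also rose in M0 KO cells, from 99.8 to 199 CPM (log2 0.99, SE 0.12, adjusted p = 1.97e-07), as did Lman1, from 124 to 187 CPM (log2 0.60, SE 0.07, adjusted p = 7.97e-08). In M0 KO cells S100a10, the partner of Anxa2, rose by 0.58 (SE 0.08, adjusted p = 3.42e-06).

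Between the genotypes, 5 of the 22 passed in M0 cells in control medium, 2 up and 3 down in KO (16.6% of all genes), and 4 in M2 cells, all down (16.4%). Leaving out M0 WT replicate 2 brought the first count to 3. In MPNST-CM 7 passed in M0 cells, 2 up and 5 down (38.2%), and 9 in M2 cells, 1 up and 8 down (34%), which was 14 without the replicate 1 libraries that stood apart. Procr was lower in M2 KO than in M2 WT cells in MPNST-CM, at 54.6 against 113 CPM (log2 -1.04, SE 0.13, adjusted p = 2.36e-07), and Mcfd2 higher in both cell types, by 0.91 (SE 0.12, adjusted p = 8.79e-07) in M0 and 0.56 (SE 0.12, adjusted p = 0.000515) in M2. Lrp1, the receptor that clears complexes of proteases and serpins, was lower in KO cells in both media in M0 and in MPNST-CM in M2, by 0.49 to 0.68 on the log2 scale. The test of the difference in response passed for 5 of the 22 genes in M0 (19.7% of all genes) and 7 in M2 cells (20.2%). Those with at least 5 CPM were Vwf, Anxa5, Mcfd2 and Lman1 in M0, and F2rl2, Procr, Anxa5, Lrp1, Vwf and Mcfd2 in M2.

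**Figure D4:**
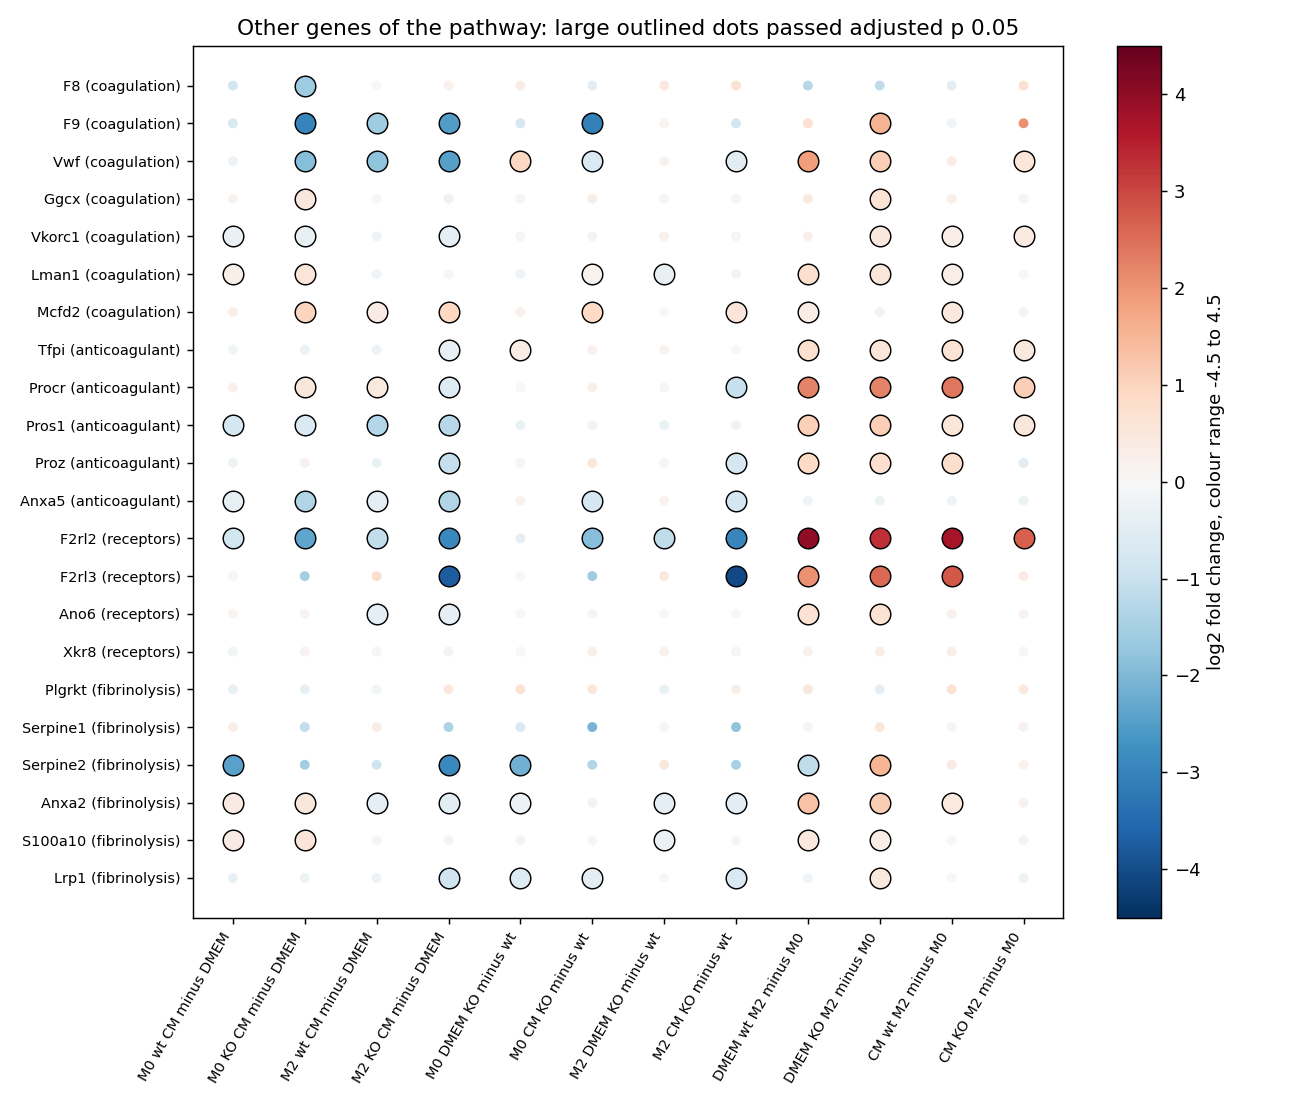
Log2 fold change (colour, from -4.5 to 4.5) of the 22 tested genes of the pathway (rows, with their list) in the 12 comparisons (columns). Large outlined dots passed an adjusted p of 0.05 in edgeR's quasi-likelihood test and small dots did not. The 4 right columns, M2 minus M0, hold 1 blue dot that passed (Serpine2), and M2 KO CM minus DMEM holds 1 red dot that passed (Mcfd2).

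The genes whose pattern over the 24 libraries was most like that of each member were looked up among all genes tested with a mean of at least 5 CPM, by Pearson r of log2 CPM. These libraries share groups and scaling. For F5 the closest were Krtcap2 (r = 0.98), Trps1 and Hif1a (both 0.97), for Serpinb2 Crem, Antxr2 and Clec4n (all 0.98), for F7 Csf2rb, Pacc1 and Prkcsh (all 0.97), and for F10 Cd84, Gpnmb (both 0.98) and Frrs1 (0.97). Plaur was closest to Ssr4 (0.97), Plau to Tkt (0.95), F3 to Bhlhe40 (0.93) and F13a1 to Park7 (0.90). Thbd was closest to Cd93 (0.91), which is also the next gene to it on chromosome 2.

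Gene order was therefore examined around the members, a step added after the values were seen. The neighbours named here were picked for their values, and not every neighbour moved with its member. Cd93, a C-type lectin-like receptor, rose with MPNST-CM in all 4 settings, from 809 to 1084 CPM in M0 WT (log2 0.42, SE 0.08, adjusted p = 0.000303) and from 673 to 1498 CPM in M0 KO cells (log2 1.16, SE 0.08, adjusted p = 5.28e-12). Next to F7, Mcf2l, a guanine nucleotide exchange factor, rose from 1.44 to 14.2 CPM from M0 to M2 WT cells in control medium (log2 3.30, SE 0.29, adjusted p = 7.07e-10), and Proz, protein Z, on the other side of F10, from 3.13 to 5.84 CPM (log2 0.89, SE 0.23, adjusted p = 0.00332). Next to F5, Selp, P-selectin, was higher in M0 KO than M0 WT cells in MPNST-CM, at 4.77 against 0.308 CPM (log2 3.91, SE 0.47, adjusted p = 1.61e-07). Selp had at most 43 counts in a library, and this M0 WT mean was under the limit of detection. Slc19a2, on the other side of F5, had 13.2 against 14.5 CPM (adjusted p = 0.815). Next to Serpinb2, Serpinb10 was at 9.63 against 3.88 CPM in that comparison (log2 1.31, SE 0.32, adjusted p = 0.00167) and Serpinb8 at 141 against 50.1 CPM (log2 1.49, SE 0.12, adjusted p = 8.28e-11). Ly86, next to F13a1, was higher in KO than in WT cells in all 4 settings (log2 1.05 to 1.90), where F13a1 was lower. Of all genes tested, 38.2% passed for KO against WT in M0 cells in MPNST-CM. For M2 against M0 in WT cells in control medium 37.2% passed.

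**Figure D5:**
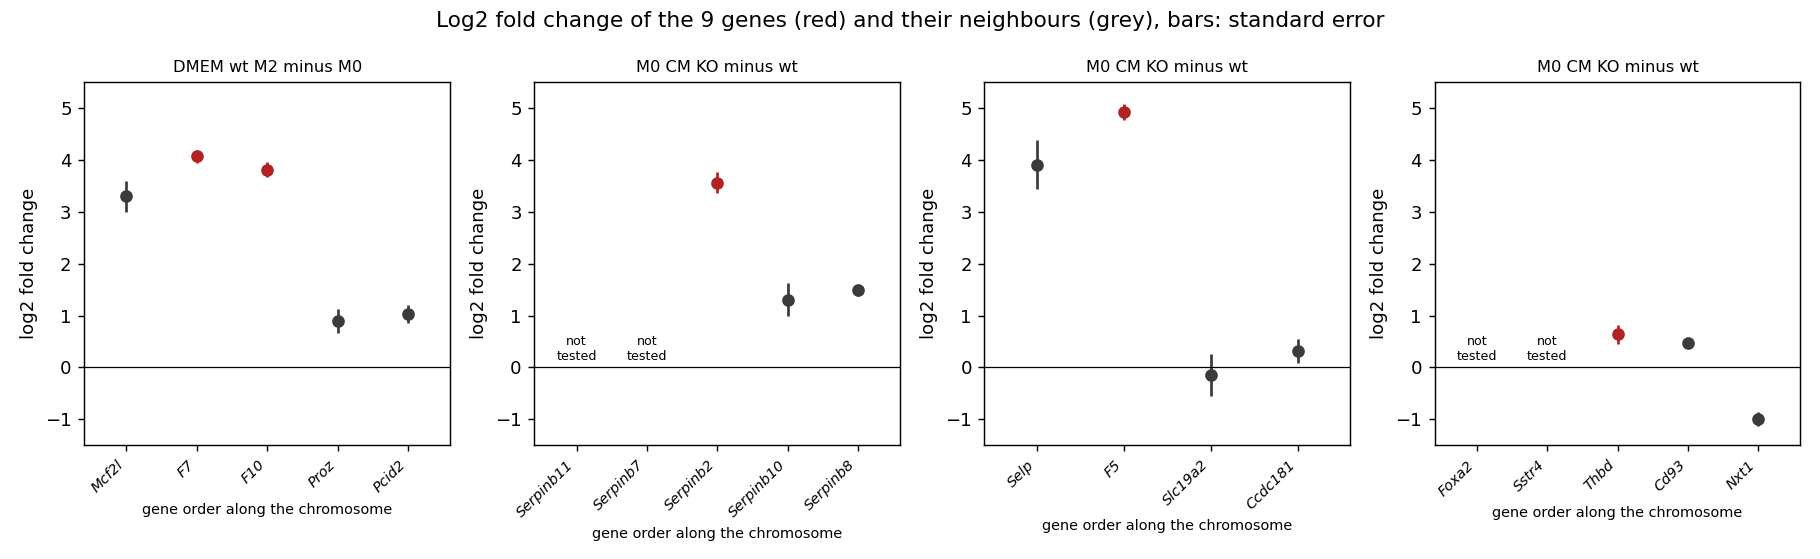
Log2 fold change (y axis) with its standard error of members (red) and the genes next to them (grey), in their RefSeq order (x axis), for M2 minus M0 in WT cells in control medium around F10, and for KO minus WT in M0 cells in MPNST-CM around Serpinb2, F5 and Thbd. Mcf2l lies near F7 and F10 on the left, and Selp lies near F5 while Slc19a2 and Ccdc181, on the other side, lie near 0. Not every neighbour is drawn.

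The batch 2 libraries bear on these values. That labelled M2 DMEM KO replicate 4 had F5 at 407 CPM, Serpinb2 at 25.2, F7 at 12.5, F10 at 9.86, Plau at 41.8 and Thbd at 42.6 CPM, and no F3 count. Its profile over all genes tested had a Spearman correlation of 0.969 with the mean of M0 KO cells in MPNST-CM. The correlation was 0.964 with M2 KO cells in MPNST-CM and 0.913 with its labelled group. This library had 2 Trap1 counts and Xist at 404 CPM. As its profile went against its label, nothing is read from it on TRAP1 genotype or Xist status, and neither was tested as a cause. In the one labelled M2 CM KO replicate 4, F5 was at 2.39, Serpinb2 at 1.97, F7 at 102 and Plau at 263 CPM. It had no Trap1 count and Xist at 308 CPM, and a correlation of 0.983 with M2 WT and 0.982 with M2 KO cells in control medium, against 0.949 with its labelled group. The library labelled M0 DMEM WT replicate 4 was closest to its own group (0.988), yet 8 of the 9 genes lay outside the batch 1 range, among them F13a1 at 31.03 CPM against 76.3 to 78.1 and Plau at 233 CPM against 131 to 164.

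With all 27 libraries under their labels, the log2 difference of MPNST-CM from control medium in M2 KO cells became 1.22 for F5 in place of 6.74, 1.63 for Serpinb2 in place of 6.79, -1.02 for Plau in place of -2.03, and -0.54 for Thbd in place of 0.55. The difference of M2 KO from M2 WT cells in control medium became 5.95 for F5 in place of 0.85. Comparisons that none of these 3 libraries enters, such as KO against WT in M0 cells in MPNST-CM, rest on batch 1 alone.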

How the data were processed

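Bulk 3′ RNA-seq (QuantSeq, oligo-dT primed, 75 bp single-end reads) of 27 libraries was deposited as a table of raw counts per gene. The authors trimmed the reads (Trimmomatic), checked them (FastQC), mapped them with HISAT2, removed reads with a mapping quality under 20 (SAMtools) and ran featureCounts on the rest. The counts were not normalized. The labels name build mm39 and the paper's methods mm10. Tool versions and the annotation are not given in the sources used here. Of its 32 columns, 5 could be matched to none of the libraries described and were left out.

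From these counts, CPM on TMM-scaled library sizes, log2 fold changes and their standard errors were computed here with edgeR 4.0.16 (R 4.3.3, limma 3.58.1) on the 24 batch 1 libraries. A single robust quasi-likelihood fit of 8 groups was used, after edgeR's filter on low counts by group (minimum count of 10), with Benjamini-Hochberg adjustment over the 13614 genes tested and a threshold of 0.05. Log2 CPM had a prior count of 2. The fit was tested on simulated data for KO against WT in M0 cells in MPNST-CM: 198 of 200 genes changed 4-fold were recovered among 13219 genes, with 8 unchanged genes called. The 200 genes were drawn from those with a mean over 5 CPM, and no shift of replicate 1 was simulated. Recovery at lower levels was therefore not tested. In each of 24 replicate pairs the counts differed beyond sampling noise (chi-square per degree of freedom 2.11 to 37.4, over genes with 20 or more counts summed over both libraries), most in pairs that hold replicate 1 of 5 groups, and a fit without those 5 libraries was added after seeing the data.

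The members and gene lists were chosen with earlier results of these data known. Beside the members, Trap1 and Xist, genes were named by a rule: in each comparison at most 5 other pathway genes, those of largest change that passed and reached 5 CPM in either group, and the 3 genes most like each member. Any other gene was picked for its values. The results were recomputed with size factors by median of ratios, DESeq2 1.42.0, no filter on low counts, the replicate number as a block, all 27 libraries with and without batch as a covariate, the compared groups alone, and leaving out each library in turn.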

Additional observations from a re-analysis of the deposited data

Results flagged for a closer look

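By Dixon's criterion for groups of 4, libraries of batch 2 stood apart from the 3 batch 1 libraries of their labelled group. This held in 13 of the 27 combinations of gene and group examined. The 9 genes were chosen for their differences and share the same 3 batch 2 libraries. The share of all genes that stood apart was not computed, so nothing is read from this count. In the library labelled M2 DMEM KO replicate 4, F5 was at 407.3 CPM (the others 2.95 to 3.02), Serpinb2 at 25.18 (0.131 to 0.407), Thbd at 42.6 (7.87 to 9.88), F7 at 12.54 (96.4 to 107), F10 at 9.86 (122 to 144) and Plau at 41.83 CPM (316 to 348). In that labelled M2 CM KO replicate 4, F5 was at 2.388 CPM (319 to 329), Serpinb2 at 1.973 (26.0 to 28.9), F7 at 101.6 (30.2 to 32.5), F10 at 76.41 (29.5 to 36.3), F13a1 at 13.81 (3.26 to 4.76) and Plau at 263 CPM (80.4 to 86.0). In M0 DMEM WT replicate 4, F13a1 was at 31.03 CPM (76.3 to 78.1).

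The response to MPNST-CM differed between KO and WT cells for some tested pathway genes (edgeR's quasi-likelihood test of the interaction, adjusted over all genes, 3 libraries in each of 4 groups). In M0 cells the log2 difference, KO minus WT, was -1.663 for Vwf (adjusted p = 2.31e-06), -0.9488 for Anxa5 (adjusted p = 5.15e-05), 0.7206 for Mcfd2 (adjusted p = 0.00276), 0.3273 for Lman1 (adjusted p = 0.0161) and -1.495 for F2rl2 (adjusted p = 0.0277). In M2 cells it was -1.822 for F2rl2 (adjusted p = 1.75e-06), -1.052 for Procr (adjusted p = 6.71e-05), -0.9253 for Anxa5 (adjusted p = 7.69e-05), -0.6664 for Lrp1 (adjusted p = 0.0173), -0.6616 for Vwf (adjusted p = 0.0225), 0.5356 for Mcfd2 (adjusted p = 0.0256) and -4.528 for F2rl3, a gene of few counts (adjusted p = 0.000442). For F13a1 the libraries of the genotypes moved in opposite directions with MPNST-CM, with a log2 difference of 1.158 in M0 and of -1.359 in M2 cells, and this difference was not tested. With the batch 2 library of M0 WT cells in control medium, the M0 WT arm was no longer lower in MPNST-CM (log2 -0.03 with all 27 libraries, 0.03 with batch as a covariate).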

How the results depend on the processing

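The number of pathway genes that passed, of the 22 tested, depended most on the 3 batch 2 libraries. With all 27 libraries under their labels it was 3 in place of 8 for MPNST-CM against control medium in M0 WT cells, 1 in place of 9 in M2 WT and 4 in place of 15 in M2 KO cells. For KO against WT it was 1 in place of 5 in M0 cells in control medium, and 2 in place of 7 in M0 and 2 in place of 9 in M2 cells in MPNST-CM. For M2 against M0 it was 7 in place of 16 for KO cells in control medium, and 6 in place of 10 for WT and 2 in place of 6 for KO cells in MPNST-CM. For the difference in response it was 0 in place of 5 in M0 (2 at an unadjusted p under 0.05 in edgeR; DESeq2 was not run on these 27) and 1 in place of 7 in M2 cells. With batch as a covariate the same counts were 3, 1 and 4, then 1, 2 and 3, then 8, 6 and 1, and 0 (4 at an unadjusted p under 0.05) and 1. Why comparisons without a batch 2 library also lost calls was not tested. With only the compared groups in the fit, which leaves fewer libraries to estimate the spread, 5 passed for M0 WT cells with MPNST-CM and 4 for KO against WT in M0 cells in MPNST-CM.

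Some member differences changed sign with batch 2. With all 27 libraries the log2 fold change of Thbd with MPNST-CM in M2 KO cells was -0.5398, that of Plau and Serpinb2 between KO and WT M2 cells in control medium -0.2013 and 3.005, and that of Plau between M2 and M0 KO cells in MPNST-CM 0.2051. With batch as a covariate these were -0.2314, -0.2169, 1.009 and 0.00831, and F13a1 with MPNST-CM in M0 WT cells was at 0.02673. DESeq2, median-of-ratios size factors and no filter on low counts left all 108 member fold changes within the spread between replicates. Leaving out each library in turn did so for 627 of 648, and most others were of F3 and Serpinb2 at few counts. Serpinb2 with MPNST-CM went from log2 6.79 to 7.47 in M2 KO cells without M2 DMEM KO replicate 3 and from 2.41 to 2.96 in M0 WT cells without M0 DMEM WT replicate 3, and F3 between KO and WT M2 cells in MPNST-CM from -2.24 to -2.88 without M2 CM KO replicate 1.

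The number of pairs of member and comparison with a log2 difference of 1 or more lay between 54 and 57 without each library in turn. The counts of pathway genes that passed ranged, without each library, from 6 to 9 (M0 WT), 10 to 12 (M0 KO), 7 to 9 (M2 WT) and 16 to 16 (M2 KO) for MPNST-CM, from 3 to 5 and 3 to 4 (M0 and M2, control medium) and 6 to 9 and 8 to 12 (M0 and M2, MPNST-CM) for KO against WT, from 11 to 14 and 15 to 16 (WT and KO, control medium) and 8 to 12 and 4 to 5 (WT and KO, MPNST-CM) for M2 against M0, and from 4 to 6 (M0) and 6 to 8 (M2) for the difference in response. The lowest, 3 for M0 cells in control medium, came without M0 WT replicate 2. Without the 5 replicate 1 libraries that stood apart (chosen after seeing the data), 14 passed in place of 9 for KO against WT in M2 cells in MPNST-CM and 10 in place of 6 for M2 against M0 in KO cells in MPNST-CM, and the other counts stayed within 1.5 times.

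Libraries of the same replicate number had a mean correlation of deviations of 0.15 over 77 pairs, 39 of them over 0.1, against -0.0588 over 175 pairs of other numbers, and 13 of 23 libraries correlated best with their own number. As not every pair was over 0.1 and the labels tie the numbers to nothing, the numbers were not taken to pair the libraries, although replicate 1 stood apart in 5 groups. A fit that held these numbers as a replicate block gave 6 genes in place of 5 for KO against WT in M0 cells in control medium and 10 in place of 7 in MPNST-CM, and no count moved by over 1.5 times. In that fit M2 DMEM WT replicate 4 was the only library of its number, so it added nothing to the differences. Depth limited F3 in M0 cells, with 0 to 8 counts in a library, and Serpinb2 in control medium, with 1 to 7 counts.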

Other observations

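The genes beside the members were not bound to them in every setting. Selp, beside F5, was also higher in M2 than in M0 WT cells in control medium, at 4.49 against 0.0843 CPM (edgeR's quasi-likelihood test, adjusted p = 2.6e-08), where F5 was at 1.69 against 1.63 CPM with overlapping libraries. The M0 WT mean of Selp was under the limit of detection here too. Serpinb8, an intracellular serpin near Serpinb2, rose with MPNST-CM in all 4 settings, from log2 0.92 (SE 0.12, adjusted p = 3.69e-06) in M0 WT to 3.10 (SE 0.13, adjusted p = 1.72e-16) in M0 KO cells, where it went from 16.5 to 141 CPM. Mcf2l, beside F7, fell with MPNST-CM in M2 KO cells from 11.3 to 3.01 CPM (log2 -1.91, SE 0.27, adjusted p = 1.81e-06), while in M2 WT cells it was at 14.2 CPM in control medium and 10.2 CPM in MPNST-CM (adjusted p = 0.148).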
